A study of Mus musculus with 18 samples.

Results

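Messenger RNA of wild-type CD4+ T cells cultured with 2 ng/ml TGF-b was compared with that of the same kind of cells cultured with 0.2 ng/ml, to see which genes moved further once the dose exceeded the low one. The members were the 4 libraries labelled WT at these doses, 2 per dose, out of 12 in experiment 1 and 18 in the whole series. They were chosen by their labels alone, and FPKM values of entries with the same gene symbol were summed. The series started from splenic naive CD4+ T cells of the C57BL/6 strain, isolated by FACS. They were stimulated in culture through CD3 and CD28 and collected 4 days later. WT cells came from Cd4Cre mice without floxed alleles named in the label, so the controls carried the Cre transgene as well, a recombinase expressed from a T cell promoter during thymic development. The other groups used here were tKO cells, of genotype Egln1fl/fl Egln2fl/fl Egln3fl/fl Cd4Cre, at 2 and 0.2 ng/ml TGF-b, and both tKO and WT cells without TGF-b. The floxed genes encode the oxygen-sensing hydroxylases PHD2, PHD1 and PHD3. Over the 3 doses, Egln1 lay between 92.8 and 122 FPKM in tKO, against 20.4 to 44.3 FPKM in WT, Egln2 between 19.9 and 39.0 FPKM, against 35.6 to 48.8 FPKM, and Egln3 between 77.4 and 140.2 FPKM, against 5.68 to 18.7 FPKM. Egln1 and Egln3 were thus higher in the cells labelled as lacking them, and since the labels do not name the floxed exons and FPKM cover whole genes, these values do not check the deletion. The labels do not say whether the 2 libraries of a group came from separate animals, so p-values measure only the spread between these libraries.

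TGF-b is a cytokine that binds a pair of receptor kinases, which phosphorylate SMAD2 and SMAD3. These join SMAD4, enter the nucleus and bind DNA with partner factors. Among the targets are inhibitors of the pathway itself, such as Smad7, which shuts off the receptors. In activated CD4+ T cells TGF-b is known for inducing Foxp3, the lineage factor of regulatory T cells, and Itgae, the alpha chain of the integrin CD103, and for restraining effector genes such as Gzmb and Tbx21.

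All values are FPKM as the authors deposited them, given for replicate 1 and then replicate 2. Each fold change is a log2 ratio taken after adding 1 to the FPKM, with its SE after ±, and this understates the change of genes with low values. The p-values are limma's, two-sided and adjusted by Benjamini-Hochberg over the 10354 genes whose FPKM averaged 1 or more across experiment 1, and genes under 0.05 are called. The fit used all 12 libraries of experiment 1, so the spread was estimated over 6 groups of 2.

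The 4 libraries were alike in scale. Their FPKM sums lay between 630549 and 662155, 10032 to 10159 symbols reached 1 FPKM, and the 10 most abundant symbols took 6.85% to 8.31% of the sum. Across genes, the 2 libraries at 2 ng/ml correlated at r = 0.970 and those at 0.2 ng/ml at r = 0.977, against 0.960 to 0.971 for pairs of unlike dose. These genes are not independent replicates. Absolute depth is unknown, and the reads behind 1 FPKM, relative to the other libraries, lay between 0.770 and 1.14. Entries without a symbol took 9.55% of the FPKM of replicate 2 at 2 ng/ml and at most 5.87% of the others.

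The cells carried the markers of CD4+ T cells. Cd4 had 137 and 141 FPKM at 2 ng/ml, against 153 and 170.3 FPKM at 0.2 ng/ml, and Cd3e had 618 and 543 FPKM, against 465 and 481 FPKM. The 2 CD8 markers summed to 8.84 and 4.02 FPKM at 2 ng/ml, against 6.51 and 4.19 FPKM at 0.2 ng/ml. Of 9 myeloid markers present in the table, 5 were listed at 0 in all 4 libraries, Lyz2, Cd14, Mpo, S100a8 and S100a9, and their sums lay between 1.85 and 8.49 FPKM. The NK markers Ncr1 and Klre1 and the B cell factor Pax5 were likewise listed at 0, and the 8 B cell markers summed to 66.4 and 19.2 FPKM at 2 ng/ml, against 65.2 and 38.9 FPKM at 0.2 ng/ml. Dendritic and MHC class II markers summed to 1016 and 317 FPKM, against 1125 and 609 FPKM, with Itgax listed at 0. These class II and B cell sums were higher in replicate 1 than in replicate 2 at both doses. No tested marker of B cells, CD8 T cells, NK cells or dendritic cells was called between the doses. In bulk samples, fewer cells of a type and less RNA per cell cannot be told apart.

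Between 2 and 0.2 ng/ml, 45 of 10354 genes were called, 0.435% of those tested. Of these, 28 were higher at 2 ng/ml (0.27%) and 17 lower (0.164%). Rises were led by the integrin gene Itgae and included 3 feedback inhibitors of TGF-b signalling, and the largest fall was that of the cytotoxic protease gene Gzmb. Foxp3 was not among them. The median log2 fold change over all genes was 0.00, with 5197 positive and 5122 negative. An unadjusted limma p under 0.05 was found for 1336 genes, 692 higher and 644 lower. In 2449 genes (23.7%) both libraries at 2 ng/ml lay above both at 0.2 ng/ml, and in 2377 (23.0%) both lay below. With 2 libraries per dose such a split often arises by order alone. Every called gene had it, so the lack of overlap given for called genes below adds no support to their calls. Among all genes so split, a difference of 1 log2 unit or more was seen upwards in 189 (1.83% of genes tested) and downwards in 128 (1.24%).

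The calls leaned on each library. Without replicate 1 at 2 ng/ml 21 genes were called, without replicate 2 at 2 ng/ml 8, without replicate 1 at 0.2 ng/ml 12, and without replicate 2 at 0.2 ng/ml 16. In each of these fits a lone library stands for its dose and is assumed to vary like the other groups. The call was kept in all 4 for 6 genes: Itgae, 2310002J15Rik and Rnf208, which rose, and Nrn1, Dapl1 and Mgarp, which fell. It was kept in 3 for 1 gene, in 2 for 4 genes, in 1 for 8 genes and in none for 26 genes. All 45 kept their sign in all 4. With a pseudocount of 0.1 FPKM 29 of the 45 kept their call, and without a filter on low values 24. A fit on the 4 WT libraries alone called 0 genes with limma, with 1517 at an unadjusted p under 0.05 and a smallest adjusted p of 0.103.

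**Figure D1:**
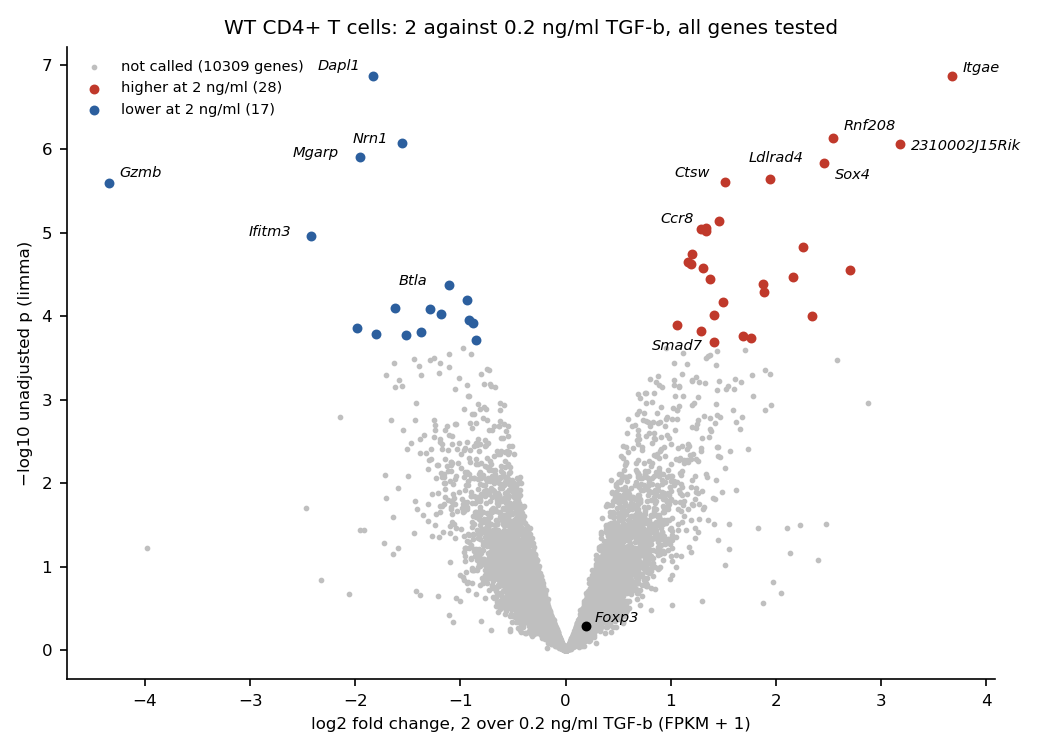
Each point is 1 of 10354 genes in WT cells, with the log2 fold change of 2 over 0.2 ng/ml TGF-b on the x axis and −log10 of limma's unadjusted p on the y axis. Red points are the 28 genes called higher, blue points the 17 called lower, and the black point is Foxp3, which lies near the origin with a log2 fold change of 0.19.

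Itgae (chromosome 11, 72904096 to 72961744, mm9), whose protein pairs with integrin beta 7 to bind E-cadherin on epithelium, had 39.8 and 66.9 FPKM at 2 ng/ml, against 2.33 and 4.09 FPKM at 0.2 ng/ml. Both libraries at the high dose lay far above both at the low dose, and the means were 53.4 ± 19.1 and 3.21 ± 1.24 FPKM (SD, n = 2 each), a ratio of 16.6. It rose by 3.68 ± 0.36 on the log2 scale (adjusted p = 0.000691), the largest rise called, and the adjusted p was 0.00479 to 0.0187 with each of the 4 libraries left out in turn. With a pseudocount of 0.1 FPKM in place of 1 the call was lost (log2 fold change 4.02, adjusted p = 0.0558). Itgae was the 1 call among 17 tested integrin, adhesion and matrix genes, whose median log2 fold change was 0.13. Without TGF-b its WT libraries had 0.0709 and 0.136 FPKM. Itgae overlaps Gsg2 in the genome, a kinase gene whose reads an unstranded library cannot separate, and Gsg2 itself differed by -0.18 ± 0.27 on the log2 scale (adjusted p = 0.847). The partner chain Itgb7 had 141 and 136 FPKM at 2 ng/ml, against 240.0 and 255 FPKM at 0.2 ng/ml, and was not called (-0.83 ± 0.36, adjusted p = 0.347).

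Of 12 tested genes listed as feedback inhibitors of TGF-b signalling, 3 were called higher and none lower, against 0.27% and 0.164% of all genes tested. The list's median log2 fold change was 0.43, against 0.00 over all genes. All gene lists were chosen with earlier results of these data known, so these comparisons are not independent evidence. Ldlrad4, a membrane protein that withholds SMADs from the receptor, had 117 and 122 FPKM at 2 ng/ml, against 26.1 and 35.4 FPKM at 0.2 ng/ml, with no overlap. It rose by 1.94 ± 0.24 on the log2 scale (adjusted p = 0.00262). Spsb1, a ubiquitin ligase adaptor that targets the type II receptor, had 23.0 and 44.4 FPKM, against 8.06 and 4.29 FPKM. It rose by 2.26 ± 0.34 on the log2 scale (adjusted p = 0.00974). Its replicates lay apart at each dose but the doses did not overlap. Smad7, the inhibitory SMAD, had 17.6 and 14.8 FPKM, against 5.93 and 4.95 FPKM, and rose by 1.41 ± 0.28 (adjusted p = 0.0469). With each library left out in turn, the adjusted p was 0.0256 to 0.0713 for Ldlrad4, 0.0145 to 0.151 for Spsb1 and 0.162 to 0.329 for Smad7. The list then held 0 calls without replicate 2 at 2 ng/ml and 1 without either library at 0.2 ng/ml. Pmepa1, another inhibitor that binds SMADs, was also higher in both libraries, with 70.8 and 43.5 FPKM at 2 ng/ml, against 26.4 and 24.3 FPKM at 0.2 ng/ml, but was not called (1.10 ± 0.24, adjusted p = 0.0693). Skil, which encodes the SMAD corepressor SnoN, differed by 0.87 ± 0.25 (adjusted p = 0.162). Of the 11 tested receptor and SMAD genes none was called, and 1, Tgfbr1, had an unadjusted p under 0.05, with 19.3 and 17.3 FPKM, against 11.1 and 9.65 FPKM.

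A list of 16 tested genes known to be induced by TGF-b in T cells had 5 called higher and none lower, with a median of 0.97. Over all genes tested, 0.27% were called higher and 0.164% lower. The list was drawn up with earlier results of these libraries known, so its direction is not independent evidence. The 5 were Itgae, Sox4, Ctsw, Ccr8 and Nupr1. Sox4 (chromosome 13, 29040788 to 29045777, mm9), a transcription factor of the SOX family, had 66.4 and 71.9 FPKM at 2 ng/ml, against 13.3 and 10.3 FPKM at 0.2 ng/ml. The replicates lay close together and the means stood in a ratio of 5.84 (2.46 ± 0.30, adjusted p = 0.00215). Ctsw, cathepsin W, a protease of cytotoxic lymphocytes, had 348 and 407 FPKM, against 109 and 158 FPKM (1.51 ± 0.19, adjusted p = 0.00262). It overlaps Fibp, which differed by -0.10 ± 0.22 (adjusted p = 0.908). Ccr8, a chemokine receptor that is high on tissue regulatory T cells, had 465 and 404 FPKM, against 146 and 200.1 FPKM (1.34 ± 0.19, adjusted p = 0.00703). Nupr1, a small chromatin protein of the stress response, had 152 and 190.2 FPKM, against 39.7 and 61.1 FPKM (1.77 ± 0.34, adjusted p = 0.0437). In none of the 5 did the groups overlap, as in every called gene. The call of Nupr1 was lost without any 1 of the 4 libraries. The count was 3 without replicate 1 and 1 without replicate 2 at 2 ng/ml, and 2 without replicate 1 at 0.2 ng/ml.

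Promoter sequence is shown for 5 called genes, 3 that rose and 2 that fell, so that the starts of genes on either side of the response can be read beside their values. Each run lies within the 150 bases before the RefSeq start on GRCm38.p6, 5′ to 3′ on the gene's strand. Bases at either end that a GENCODE transcript of the same gene holds were left out, so the runs are 113 to 150 bases long. Capitals mark matches on either strand to CAGAC, the box to which SMAD3 and SMAD4 bind, or to GGCGC, a GC-rich SMAD motif.
Sox4 (chr13:28953714-28953849, minus strand): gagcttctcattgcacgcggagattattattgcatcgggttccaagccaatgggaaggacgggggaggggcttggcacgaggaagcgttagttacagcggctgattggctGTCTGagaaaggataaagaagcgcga
Spsb1 (chr4:149955044-149955156, minus strand): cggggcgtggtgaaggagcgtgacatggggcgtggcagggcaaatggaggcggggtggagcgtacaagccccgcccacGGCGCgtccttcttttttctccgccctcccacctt
Ccr8 (chr9:120091983-120092113, plus strand): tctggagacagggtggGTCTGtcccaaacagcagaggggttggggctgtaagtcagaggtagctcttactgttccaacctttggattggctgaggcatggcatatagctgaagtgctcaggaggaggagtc
Dapl1 (chr2:59484503-59484652, plus strand): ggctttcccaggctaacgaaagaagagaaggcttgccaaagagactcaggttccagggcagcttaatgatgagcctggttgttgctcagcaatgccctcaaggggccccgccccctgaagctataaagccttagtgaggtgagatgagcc
Mgarp (chr3:51396549-51396669, minus strand): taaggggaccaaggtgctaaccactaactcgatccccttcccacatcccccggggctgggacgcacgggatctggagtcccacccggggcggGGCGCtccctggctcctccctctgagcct
RefSeq promoters were matched by symbol for 32 of the 45 called genes. In the 250 bases before the start, CAGAC was found in 6 of 20 promoters of genes that rose and in 4 of 12 of genes that fell, against 42.1% of 27025 mouse promoters. The GGCGC letters were found in 13 of 20 and in 4 of 12, against 32.1% of all. ACGTG, the core that HIF proteins bind, was found in 4 of 20 and in 3 of 12, against 16.6% of all. The Dapl1 run holds no match. Matches of different words may share letters, and a match is a description of letters, not of binding.

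Of 21 tested members of the regulatory T cell list 1 rose, Ccr8, 1 fell, Tnfrsf18, and 19 did not pass, with a median of -0.02. Foxp3 had 120.3 and 168 FPKM at 2 ng/ml, against 108 and 144 FPKM at 0.2 ng/ml, and the doses overlapped. Its log2 fold change was 0.19 ± 0.28, with a 95% interval of -0.42 to 0.80 (adjusted p = 0.843). Tnfrsf18, which encodes the costimulatory receptor GITR, had 281 and 275 FPKM, against 439 and 574 FPKM, and fell by 0.85 ± 0.17 on the log2 scale (adjusted p = 0.0455). Removing any 1 of the 4 libraries ended that call (adjusted p = 0.0949 to 0.381). Gpr83 and Folr4, a receptor and a folate receptor relative of regulatory T cells, lay lower in both libraries at 2 ng/ml but were not called. Gpr83 had 9.28 and 8.98 FPKM, against 19.6 and 25.4 FPKM (adjusted p = 0.0693). Folr4 had 129 and 124 FPKM, against 197 and 241 FPKM (adjusted p = 0.0713). Ikzf4, the Foxp3 partner Eos, lay higher, with 31.8 and 29.4 FPKM, against 15.8 and 15.9 FPKM (0.91 ± 0.22, adjusted p = 0.0955). Il2ra, the high-affinity interleukin 2 receptor chain, and Ctla4, an inhibitory receptor, had log2 fold changes of -0.10 ± 0.17 and -0.17 ± 0.20 with overlapping doses.

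**Figure D2:**
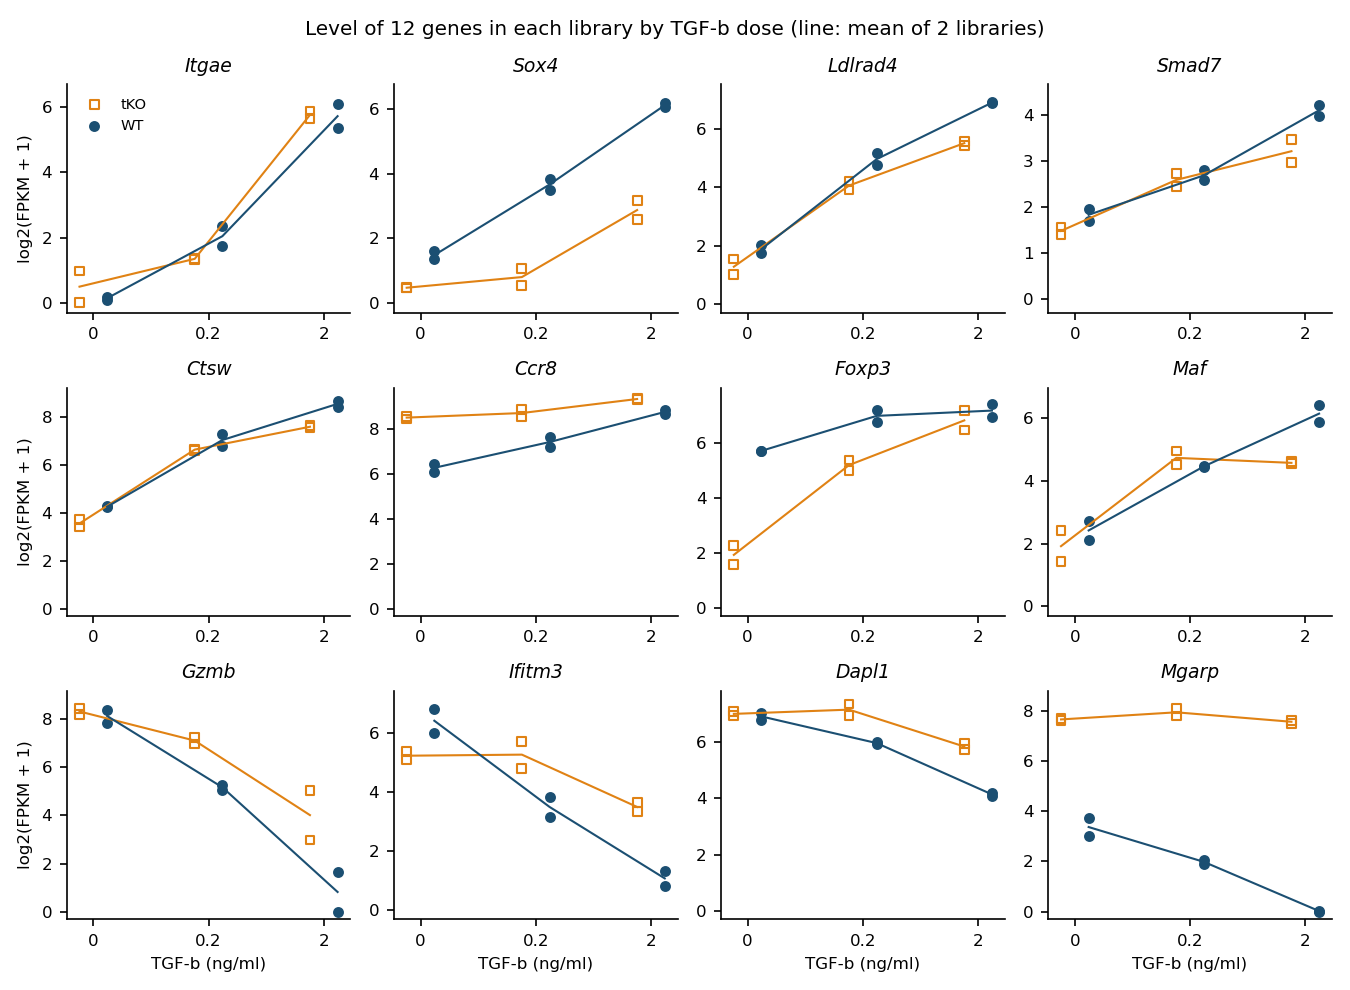
Each panel shows 1 gene, with TGF-b dose in ng/ml on the x axis (evenly spaced categories) and log2(FPKM + 1) on the y axis. Open orange squares are tKO libraries, filled blue circles WT libraries, and lines join the means of 2. WT Foxp3 had 108 and 144 FPKM at 0.2 ng/ml and 120.3 and 168 FPKM at 2 ng/ml, while WT Itgae, Sox4 and Ldlrad4 lay higher and WT Gzmb, Ifitm3 and Dapl1 lower at each dose than at the one before.

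Maf, the transcription factor c-Maf of Th2, Tfh and interleukin 10-producing cells, was called among 19 tested lineage transcription factors and 10 tested Th2 and Th9 genes, with no other call in either list. It had 85.3 and 57.8 FPKM at 2 ng/ml, against 21.6 and 20.8 FPKM at 0.2 ng/ml (1.68 ± 0.33, adjusted p = 0.0421), but not after any 1 of the 4 libraries was removed (adjusted p = 0.136 to 0.313). Il4 was listed at 0 in 3 of the 4 libraries, and Il9 overlapped between doses, with 1.19 and 2.67 FPKM, against 1.70 and 0.368 FPKM. Of 6 tested Th17 genes none was called, with a median of 0.51. Ccr6, the receptor for CCL20, had 174 and 182 FPKM, against 64.4 and 104 FPKM (1.11 ± 0.35, adjusted p = 0.205). Il17f had 126 and 99.7 FPKM, against 45.7 and 68.9 FPKM (0.99 ± 0.63, adjusted p = 0.551). Ccr8 was the 1 call among 15 tested chemokine and chemokine receptor genes, whose median was 0.92. The B cell follicle homing receptor gene Cxcr5 had 19.6 and 27.6 FPKM, against 7.78 and 5.32 FPKM, and just missed the threshold (1.70 ± 0.34, adjusted p = 0.0546). Cxcr6 had 68.2 and 60.0 FPKM, against 27.9 and 21.9 FPKM (1.34 ± 0.43, adjusted p = 0.21).

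A pair of the steepest rises were neighbours in the genome. 2310002J15Rik (chromosome 2, 25094338 to 25095417, mm9), an entry with no described role, had 9.44 and 11.4 FPKM at 2 ng/ml, against 0.580 FPKM and a listed 0 at 0.2 ng/ml. Rnf208 (chromosome 2, 25097582 to 25099781, mm9), a RING finger protein gene, begins 2164 bases further on and had 19.5 and 16.2 FPKM, against 2.73 and 1.79 FPKM. Neither overlapped between the doses, and they rose by 3.18 ± 0.37 and 2.54 ± 0.29 (adjusted p = 0.0018 and 0.0018). With 1 library at 0.2 ng/ml listed at 0, the fold change of 2310002J15Rik is uncertain in size. With each library left out, the adjusted p was 0.0128 to 0.0408 for 2310002J15Rik and 0.0129 to 0.0264 for Rnf208. With a pseudocount of 0.1 FPKM it was 0.0587 for 2310002J15Rik, which lost its call, and 0.00749 for Rnf208. A filter at a mean of 5 FPKM left 2310002J15Rik untested.

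Tspan7, a tetraspanin, had 8.82 and 11.4 FPKM at 2 ng/ml, against 0.411 and 1.02 FPKM at 0.2 ng/ml (2.70 ± 0.43, adjusted p = 0.014). Rasgrp3, an exchange factor that activates Ras, had 15.4 and 21.4 FPKM, against 4.08 and 1.82 FPKM (2.34 ± 0.43, adjusted p = 0.0311). Fermt1, the integrin activator kindlin-1, had 3.99 and 8.41 FPKM, against 0.44 and 0.632 FPKM (2.16 ± 0.35, adjusted p = 0.0162). In all 3 genes the low-dose libraries lay under 5 FPKM and the doses did not overlap. Pdlim5, a PDZ and LIM domain scaffold of the actin skeleton, had 104 and 136 FPKM, against 37.3 and 46.2 FPKM (1.50 ± 0.26, adjusted p = 0.0252). Rgs10, which speeds the shut-off of G proteins, had the highest mean FPKM at 2 ng/ml of the called genes, with 661 and 599 FPKM, against 264 and 299 FPKM (1.16 ± 0.18, adjusted p = 0.0129). Timp2, a metalloproteinase inhibitor, had 133 and 118 FPKM, against 46.7 and 51.7 FPKM (1.33 ± 0.19, adjusted p = 0.00703). All 3 were abundant at both doses and, like every called gene, did not overlap between them. The calls of Pdlim5, Rgs10 and Timp2, like those of Tspan7 and Rasgrp3, were lost without any 1 of the 4 libraries. Cd72, a receptor best known from B cells, had 101 and 98.0 FPKM, against 38.8 and 41.5 FPKM (1.29 ± 0.18, adjusted p = 0.00703), whereas the summed B cell markers overlapped between the doses. The call of Cd72 was likewise lost without any 1 of the 4 libraries. Cd72 overlaps Tesk1 in the genome, which differed by 0.69 ± 0.39 (adjusted p = 0.491).

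Mxd4, which rose as well, encodes a partner of MAX that opposes MYC, and it had 93.8 and 94.6 FPKM at 2 ng/ml, against 28.0 and 40.6 FPKM at 0.2 ng/ml (1.45 ± 0.20, adjusted p = 0.00688). Pik3ip1, an inhibitor of phosphatidylinositol 3-kinase in T cells, had 140.0 and 119 FPKM, against 54.5 and 42.5 FPKM (1.41 ± 0.26, adjusted p = 0.0311). The adjusted p with each library left out was 0.0211 to 0.107 for Mxd4 and 0.129 to 0.314 for Pik3ip1. Ube2f, an enzyme that conjugates NEDD8, had 150.1 and 162 FPKM, against 57.3 and 62.1 FPKM (1.37 ± 0.23, adjusted p = 0.0164). Its call was lost without any 1 of the 4 libraries. Fbxo2, an F-box protein that recognises glycoproteins, had 15.9 and 14.4 FPKM, against 2.53 and 4.50 FPKM (1.88 ± 0.31, adjusted p = 0.0175). The other 6 rises, Tmeff1, Rnf149, Kctd14, Grina, Nucb2 and Ypel3, had log2 fold changes between 1.06 in Ypel3 and 1.88 in Tmeff1. Rnf149 overlaps Snord89 in the genome, which differed by 1.05 ± 0.54 (adjusted p = 0.447).

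Gzmb (chromosome 14, 56877694 to 56881097, mm9), the gene of granzyme B, had 2.14 FPKM and a listed 0 at 2 ng/ml, against 37.8 and 32.3 FPKM at 0.2 ng/ml. Both high-dose libraries lay far below both low-dose ones, and the difference was -4.34 ± 0.55 on the log2 scale (adjusted p = 0.00262). That was the largest fall called, with an adjusted p of 0.00539 to 0.0713 with each library left out, and a size that is uncertain because of the listed 0. Of 10 tested cytotoxic genes Gzmb alone fell and Ctsw alone rose, with a median of -0.15. Gzmc was listed at 0 in replicates 1 and 2 of the high dose, against 1.43 and 1.17 FPKM at 0.2 ng/ml (adjusted p = 0.369). Of 15 tested Th1 genes none was called, and 4 had an unadjusted p under 0.05, 2 higher and 2 lower. Tbx21, the Th1 lineage factor T-bet, was listed at 0 in the same pair, against 0.497 and 0.0151 FPKM at 0.2 ng/ml (adjusted p = 0.845). Ifng was listed at 0 in 3 of the 4 libraries.

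Ifitm3, an antiviral membrane protein induced by interferon, had 0.761 and 1.53 FPKM at 2 ng/ml, against 7.99 and 13.3 FPKM at 0.2 ng/ml, and fell with no overlap (-2.42 ± 0.35, adjusted p = 0.00756). Without 1 library the adjusted p was 0.0348 to 0.135. It was the 1 call among 21 tested interferon-stimulated genes, of which 16 had a negative log2 fold change, with a median of -0.25. Its relative Ifitm2 had 63.2 and 64.9 FPKM, against 96.0 and 120.0 FPKM (-0.74 ± 0.21, adjusted p = 0.146).

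Dapl1, a gene of naive and memory T cells, fell most certainly of the naive and recirculating list. It had 16.0 and 17.4 FPKM at 2 ng/ml, against 60.0 and 63.3 FPKM at 0.2 ng/ml (-1.83 ± 0.18, adjusted p = 0.000691). Dapl1 was the 1 call among 15 tested members, and the list's median was -0.06. The homing receptor gene Ccr7 overlapped between the doses, with 680.3 and 797 FPKM, against 688 and 777 FPKM, and was not called. Nrn1, neuritin, a surface protein found on regulatory and anergic T cells, had 33.9 and 24.8 FPKM, against 88.7 and 85.6 FPKM, and fell by 1.55 ± 0.18 on the log2 scale (adjusted p = 0.0018). Btla, an inhibitory receptor, had 12.6 and 11.2 FPKM, against 29.9 and 24.2 FPKM (-1.11 ± 0.19, adjusted p = 0.0175), the 1 call among 10 tested checkpoint genes. That call was lost without any 1 of the 4 libraries. Pdcd1, which encodes PD-1, had 322 and 302 FPKM, against 209.9 and 226 FPKM (0.51 ± 0.25, adjusted p = 0.419).

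Mgarp, a mitochondrial protein gene induced by hypoxia, was listed at 0 and had 0.0287 FPKM at 2 ng/ml, against 2.71 and 3.19 FPKM at 0.2 ng/ml (-1.96 ± 0.23, adjusted p = 0.00215). Its call was lost in a fit on the 6 WT libraries alone. Mgarp was the 1 call among 28 tested targets of HIF outside glycolysis, whose median was -0.29. Ak4, a mitochondrial adenylate kinase, had 0.468 and 0.162 FPKM, against 2.13 and 3.04 FPKM, and missed the threshold (-1.45 ± 0.30, adjusted p = 0.0587). Egln3, the oxygen-sensing hydroxylase PHD3 and itself a HIF target, lay the other way, with 11.0 and 14.9 FPKM, against 5.68 and 7.84 FPKM (0.84 ± 0.23, adjusted p = 0.127). Bnip3, a mitophagy receptor, had 24.0 and 31.9 FPKM, against 42.9 and 37.9 FPKM (adjusted p = 0.206). The list held values in both directions, 9 positive and 19 negative. Cth, cystathionine gamma-lyase of cysteine synthesis, had 0.0220 FPKM and a listed 0, against 3.74 and 2.38 FPKM (-1.99 ± 0.38, adjusted p = 0.0392). Pglyrp1, a peptidoglycan recognition protein, had 9.05 and 9.21 FPKM, against 24.9 and 36.6 FPKM (-1.62 ± 0.29, adjusted p = 0.0281). Gimap7, a GTPase of lymphocytes, had 9.14 and 12.2 FPKM, against 39.4 and 26.0 FPKM (-1.51 ± 0.29, adjusted p = 0.0421). The calls of Cth, Pglyrp1 and Gimap7 were lost without any 1 of the 4 libraries, with lowest adjusted p-values of 0.125, 0.094 and 0.110. The other 7 falls, in AI848285, Gm129, Adap1, Prelid2, Pdlim1, Anxa2 and Cdca7, ran from -1.80 in AI848285 to -0.88 in Cdca7, a gene of cycling cells.

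No gene was called in the lists of glycolysis, the cell cycle, or Myc and ribosome biogenesis, although nearly all members lay lower at 2 ng/ml. Over all genes tested, 5122 of 10354 had a negative log2 fold change, and 644 were lower at an unadjusted limma p under 0.05. Of 22 tested glycolysis genes 21 had a negative log2 fold change, with a median of -0.46, and 10 had an unadjusted p under 0.05. Tpi1, triose phosphate isomerase, had 192 and 172 FPKM at 2 ng/ml, against 287 and 313 FPKM at 0.2 ng/ml (-0.72 ± 0.16, adjusted p = 0.0713). Pkm, pyruvate kinase, had 641 and 632 FPKM, against 1035 and 1131 FPKM (adjusted p = 0.139). With libraries scaled to the same FPKM sum, 3 glycolysis genes were called lower, as with quantile normalization, and 1 with the replicate number as a block. Of the Myc and ribosome biogenesis list 1 gene was called lower without a filter on low values, as with quantile normalization. All 28 cell cycle genes were negative, with a median of -0.43, and 14 had an unadjusted p under 0.05. Mcm3, a subunit of the replicative helicase, had 100.4 and 98.8 FPKM, against 169.8 and 166 FPKM (-0.75 ± 0.22, adjusted p = 0.171). All 19 genes of Myc and ribosome biogenesis were negative, with a median of -0.37, and Nop56, a core protein of ribosomal RNA modification, had 136 and 131 FPKM, against 204 and 198 FPKM (-0.59 ± 0.14, adjusted p = 0.0936). By contrast the 34 oxidative phosphorylation genes had a median of 0.01, with no gene at an unadjusted p under 0.05. Members of a list are not independent of each other, so their common sign is a description and not a test. None of the lists of cholesterol synthesis (20 tested), early response genes (16), the interleukin 2 pathway (16), CDK inhibitors (5) or T cell markers (10) held a call, and Nupr1 was the 1 call among 15 ATF4 and amino acid genes.

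**Figure D3:**
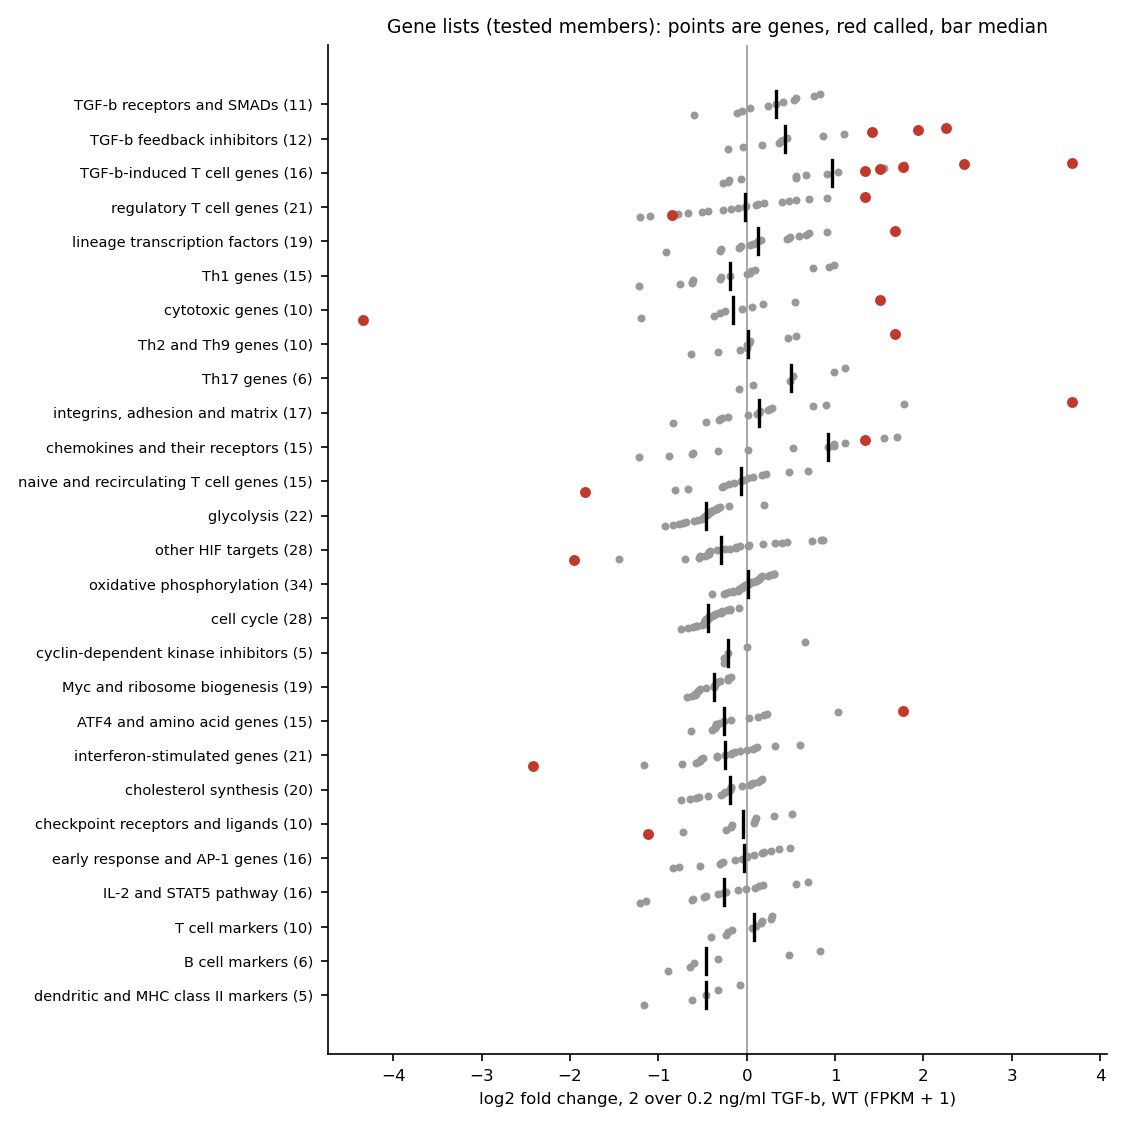
Each point is a tested gene, placed by its log2 fold change of 2 over 0.2 ng/ml TGF-b in WT on the x axis and by gene list on the y axis, with the number tested in brackets. Red points are called genes, black bars are list medians, and the TGF-b-induced list and the integrin list, which both hold Itgae, reach furthest right while the glycolysis, cell cycle and Myc lists lie mostly left of 0.

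Whether a gene moved more over the second dose step, 0.2 to 2 ng/ml, than over the first, 0 to 0.2 ng/ml, was tested directly in WT. No gene passed in limma (0%), with 324 at an unadjusted p under 0.05, 179 higher and 145 lower, and a smallest adjusted p of 0.243. The median SE of this difference was 0.47 on the log2 scale, against 0.27 for the second step itself. Over the first step 165 genes were called (1.59%), 95 higher (0.918%) and 70 lower (0.676%). Over both steps together 1626 were called (15.7%), 807 higher (7.79%) and 819 lower (7.91%). These comparisons share libraries with the second step and are set side by side as values.

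For the called genes, the levels across the 3 doses are given as a description, since no difference between the steps was called. These genes were chosen by their second step, and the 0.2 ng/ml libraries enter both steps. Itgae had 0.0709 and 0.136, then 2.33 and 4.09, then 39.8 and 66.9 FPKM at 0, 0.2 and 2 ng/ml, with log2 fold changes of 1.90 ± 0.36 and 3.68 ± 0.36 over the first and second steps. Its steps differed by 1.78 ± 0.63 (95% interval 0.42 to 3.13, not called). Adding 1 FPKM shortens most the step that starts from the lowest values, and the Itgae means were 0.103, 3.21 and 53.4 FPKM. Which of its steps was larger thus depends on the 1 FPKM added. Ldlrad4 had 2.35 and 3.08, then 26.1 and 35.4, then 117 and 122 FPKM, with steps of 3.09 ± 0.24 and 1.94 ± 0.24, and a difference of -1.15 ± 0.42. Ctsw had steps of 2.79 ± 0.19 and 1.51 ± 0.19, Sox4 of 2.19 ± 0.30 and 2.46 ± 0.30, and Ccr8 of 1.15 ± 0.19 and 1.34 ± 0.19. Sox4 and Ccr8 rose over each step, and their steps differed by 0.27 ± 0.52 and 0.19 ± 0.33. For Sox4 too the order of the steps depends on the 1 FPKM added, with means of 1.80, 11.8 and 69.1 FPKM. 2310002J15Rik had 0.428 FPKM and a listed 0 without TGF-b, and steps of 0.07 ± 0.37 and 3.18 ± 0.37. Their difference was 3.11 ± 0.64 (adjusted p = 0.593). Pglyrp1 had 32.9 and 30.8, then 24.9 and 36.6, then 9.05 and 9.21 FPKM, with steps of -0.07 ± 0.29 and -1.62 ± 0.29. AI848285 and Gm129 likewise had first steps near 0, -0.06 ± 0.35 and -0.16 ± 0.26, while Adap1, an Arf GTPase-activating protein, had 0.30 ± 0.23 and then -1.29 ± 0.23. Gzmb fell over both, with 336 and 231 FPKM without TGF-b and steps of -2.96 ± 0.55 and -4.34 ± 0.55, and so did Ifitm3, with 113 and 63.7 FPKM without TGF-b and steps of -2.92 ± 0.35 and -2.42 ± 0.35. Foxp3 had 51.4 and 50.5 FPKM without TGF-b and rose over the first step by 1.27 ± 0.28 (adjusted p = 0.0397), beside 0.19 ± 0.28 over the second, which was not called. Its steps differed by -1.08 ± 0.49, and that difference was not called.

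**Figure D4:**
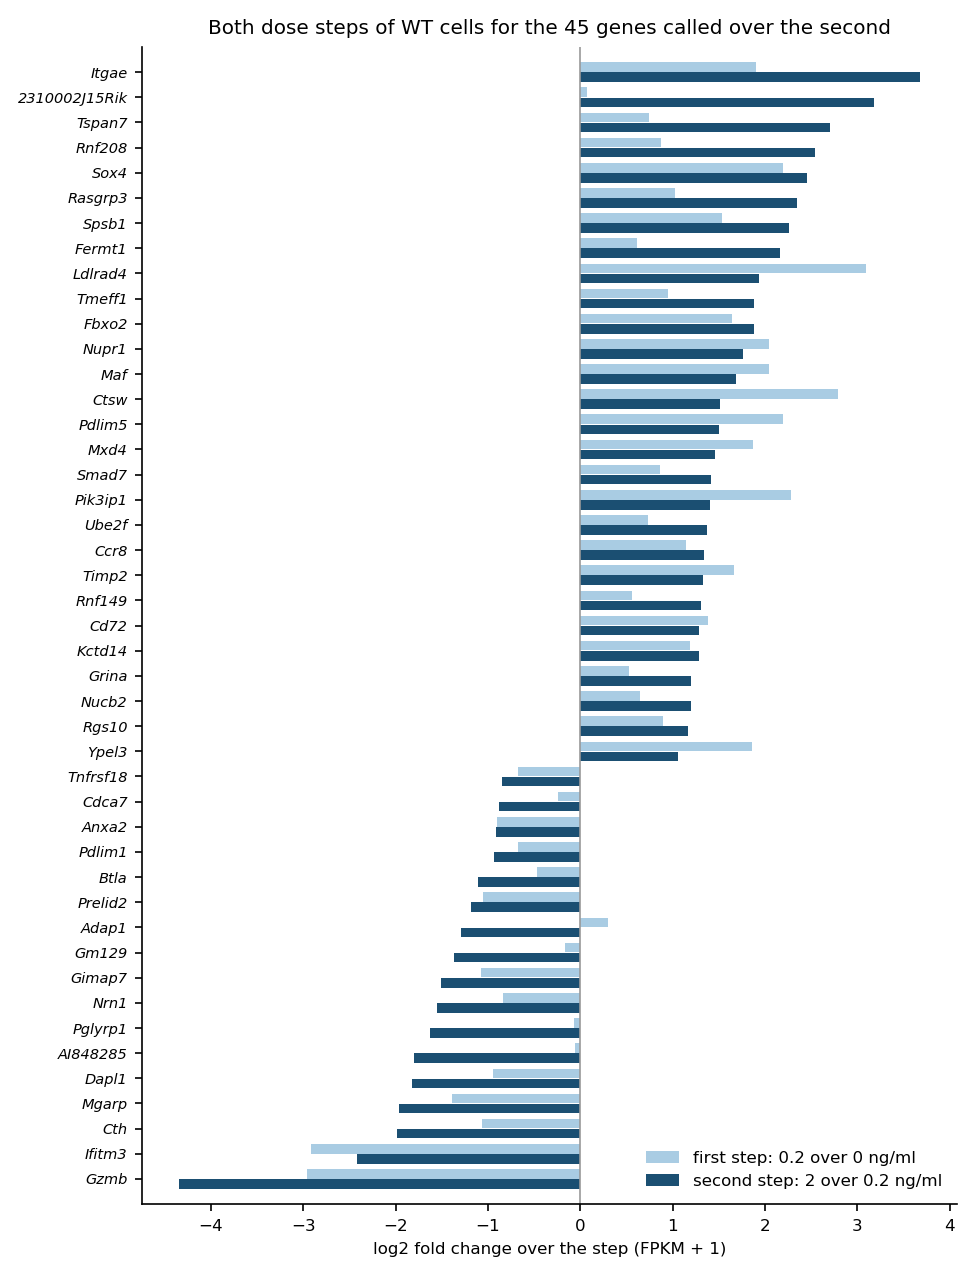
Bars show the log2 fold change in WT cells over the first step (0.2 over 0 ng/ml TGF-b, light) and the second step (2 over 0.2 ng/ml, dark) for the 45 genes called over the second, one gene per row. Ldlrad4, Ctsw and Pik3ip1 have the longer first bars and 2310002J15Rik, AI848285 and Pglyrp1 nearly all of their change in the second, but no gene's difference between the steps was called.

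The same dose step in tKO cells shares no library with that in WT. In tKO 991 genes were called between 2 and 0.2 ng/ml, 9.57% of those tested, 221 higher (2.13%) and 770 lower (7.44%). The FPKM were not rescaled, and the tKO libraries summed to 563271.7 and 548973.5 FPKM at 2 ng/ml, against 726892.5 and 856147 FPKM at 0.2 ng/ml. How the number and direction of these tKO calls depend on scaling was not tested. Of the 28 genes that rose in WT, 24 had the same sign in tKO, where 50.9% of all genes were positive, and 11 were called higher there, with none called lower. Of the 17 that fell, 15 had the same sign, where 49.0% of all genes were negative, and 8 were called lower, with none called higher. The median log2 fold change of the 28 was 0.64 in tKO, against 1.50 in WT, and that of the 17 was -0.60 in tKO, against -1.51 in WT. The WT values chose these genes, so the larger medians in WT are a description. Itgae had 57.8 and 48.7 FPKM at 2 ng/ml in tKO, against 1.52 and 1.57 FPKM at 0.2 ng/ml, a rise of 4.41 ± 0.36 (adjusted p = 5.9e-05), beside 3.68 ± 0.36 in WT. Gzmb had 32.0 and 6.91 FPKM, against 124 and 151 FPKM (-3.09 ± 0.55, adjusted p = 0.00618). Sox4 had 5.01 and 8.02 FPKM, against 1.09 and 0.456 FPKM (2.08 ± 0.30, adjusted p = 0.00415), at levels far below those of WT. The 1 FPKM added shrinks the fold change most at such low values, so the size of this step cannot be set against that in WT. Ldlrad4 rose in tKO by 1.46 ± 0.24 (adjusted p = 0.00493) and Smad7 was not called (0.62 ± 0.28, adjusted p = 0.181).

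The difference of the step between the genotypes, tKO minus WT, was called for 214 of 10354 genes (2.07%), 36 higher (0.348%) and 178 lower (1.72%) in tKO. The split depended on scaling, with 206 higher and 76 lower when libraries were scaled to the same FPKM sum, and 86 higher and 117 lower with quantile normalization. It also rested on single libraries: 6 genes were called without tKO replicate 2 at 0.2 ng/ml, which had the fewest reads per FPKM, at a relative 0.533, and 1691 without tKO replicate 1 at that dose. Between 1 and 5 were called without any 1 of the 6 WT libraries and 3 without either tKO library at 2 ng/ml. Among the 45 genes the difference was called for 6. The WT step by which the 45 were chosen is part of this difference, and that choice tends to make the tKO step look smaller. The count of 6 is therefore a description and not a test. Rgs10 had 167 and 163 FPKM at 2 ng/ml in tKO, against 172 and 197 FPKM at 0.2 ng/ml, and the steps differed by -1.32 ± 0.26 (adjusted p = 0.0386). Ube2f had 50.7 and 55.6 FPKM, against 48.4 and 69.2 FPKM (-1.50 ± 0.32, adjusted p = 0.0391). The neighbours on chromosome 2 had smaller steps in tKO than in WT. 2310002J15Rik had 2.56 and 1.37 FPKM in tKO, against 1.14 and 1.18 FPKM, and a difference of -2.75 ± 0.52 (adjusted p = 0.0386), and Rnf208 had 12.8 and 15.7 FPKM, against 7.18 and 7.99 FPKM, and a difference of -1.72 ± 0.41 (adjusted p = 0.04997). Mgarp had 197 and 179 FPKM in tKO, against 220.3 and 270.4 FPKM (difference 1.58 ± 0.33, adjusted p = 0.0391), and Pglyrp1 had 10.3 and 12.4 FPKM, against 10.4 and 6.96 FPKM (difference 2.00 ± 0.41, adjusted p = 0.0389). For Maf, with 23.5 and 22.4 FPKM in tKO, against 22.0 and 30.1 FPKM, the difference was -1.84 ± 0.46 and was not called (adjusted p = 0.0592). Foxp3 rose in tKO, with 86.7 and 142 FPKM at 2 ng/ml, against 40.2 and 30.9 FPKM at 0.2 ng/ml, a step of 1.62 ± 0.28 (adjusted p = 0.00546), beside 0.19 ± 0.28 in WT. The difference of these steps was 1.43 ± 0.40 (adjusted p = 0.075), which was not called.

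**Figure D5:**
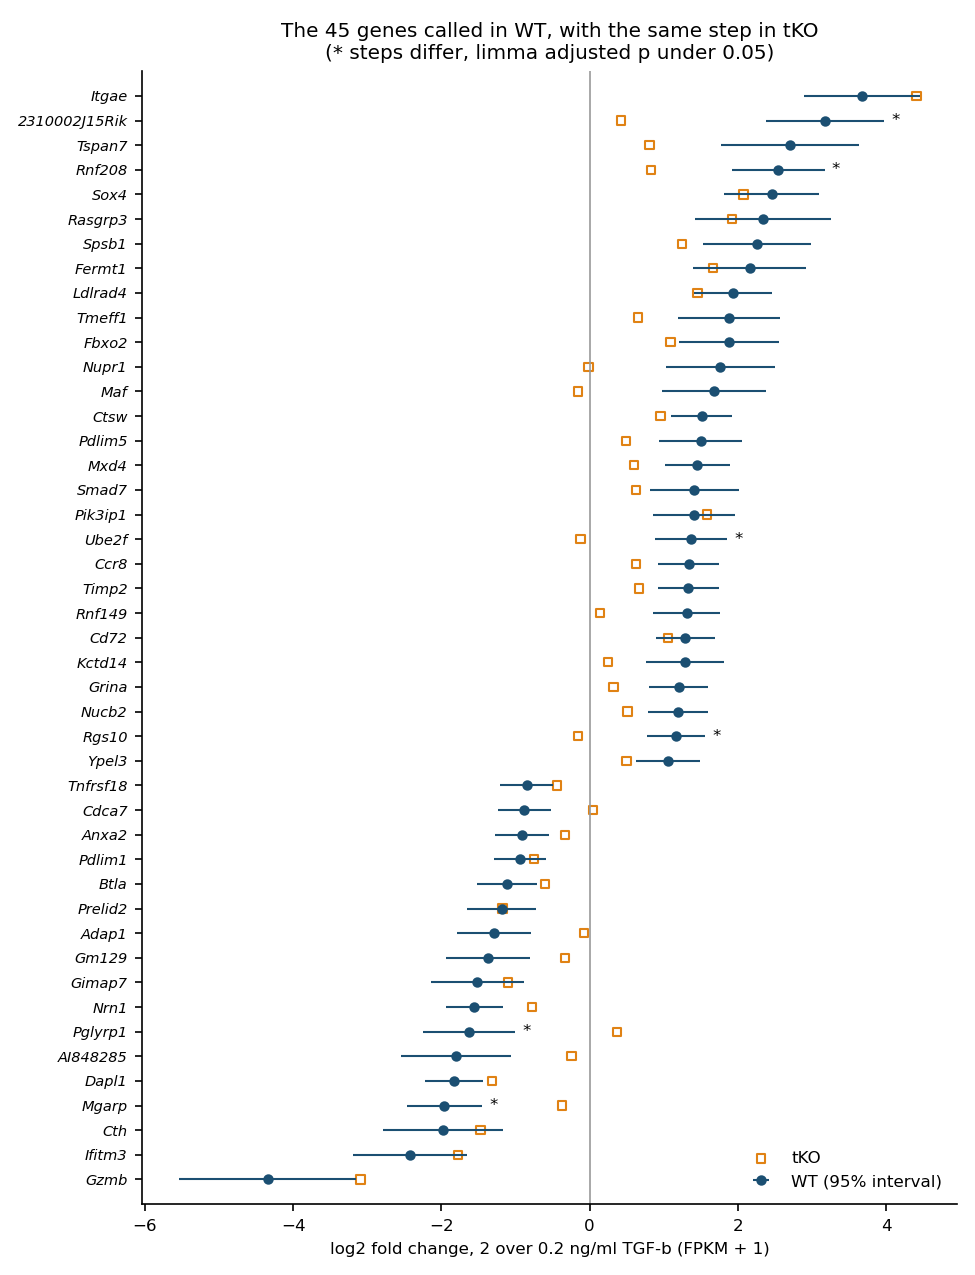
For the 45 genes called in WT, one per row, open orange squares give the log2 fold change of 2 over 0.2 ng/ml TGF-b in tKO and filled blue circles that in WT, with limma's 95% interval for WT. Asterisks mark the 6 genes whose steps differed between genotypes at an adjusted p under 0.05.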

How the data were processed

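Libraries were made with Clontech's SMARTer kit for low input, which does not mark the strand, per the labels' protocols. Trimmomatic, Cufflinks, TopHat, Cuffdiff and mm9 are named in the submitters' processing notes without versions. FPKM values per entry and library were deposited by the authors, per the file headers, and no counts were used here, so counting error could not be given. The table held 34309 entries. The 8483 without a symbol and 17 exact duplicates were dropped, and entries were summed to 22783 symbols. The 10354 genes averaging 1 FPKM or more in the 12 libraries were fitted on log2(FPKM + 1) in limma 3.58.1 (R 4.3.3), using a mean-variance trend and a mean for each group. Tests were two-sided, with Benjamini-Hochberg adjustment over all genes tested and a threshold of 0.05. The contrasts were 2 minus 0.2 ng/ml in WT, its difference from the 0.2 minus 0 ng/ml step, and its difference from the same step in tKO. The procedure was tested on simulated data. An exact 0 in such a table can be a failed estimate and is given as listed at 0. Named genes were the largest rises and falls called, up to 4 members of each list with the smallest p, the largest called differences of steps, and 8 anchors. Values just outside these rules, such as Ccr7, were named after they were seen, and some genes the rules picked are not reported here. The members and gene lists were chosen with earlier results of these data known. Experiment 2 was not used here. Alternatives covered the pseudocount, the filter, scaling, the libraries fitted, a replicate block and each library left out.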

Additional observations from a re-analysis of the deposited data

Results flagged for a closer look

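The step between 2 and 0.2 ng/ml TGF-b was compared between the genotypes, tKO minus WT. It differed at a limma adjusted p under 0.05 for 17 of the genes named here. Over all genes tested it did so for 214 of 10354 (2.07%). Some of the 17 were named because this difference was called, and others by their WT step, which enters it. The count of 17 thus follows partly from the naming. These differences are on the log2 scale, and the number of such calls over all genes depended on single libraries, with 6 left without tKO replicate 2 at 0.2 ng/ml.

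Isg15, an interferon-induced modifier, differed by -3.76, with 1.84 and 2.22 FPKM at 2 ng/ml in tKO, against 39.8 and 84.9 FPKM at 0.2 ng/ml. Batf3, an AP-1 family factor, differed by -2.64 and was listed at 0 in all 4 WT libraries at these doses. It had 1.35 and 1.42 FPKM in WT without TGF-b, and passed the filter only through its tKO values. Its WT step could not fall, so the difference is the tKO step alone. In tKO it had 1.14 and 1.26 FPKM at 2 ng/ml, against 7.95 and 20.1 FPKM at 0.2 ng/ml. Ndufa2, a subunit of respiratory complex I, differed by -1.73, and Ddit3, a stress response factor, by -1.58. Egln3 differed by -1.49, with 77.4 and 79.4 FPKM at 2 ng/ml in tKO, against 136 and 111 FPKM at 0.2 ng/ml, and 11.0 and 14.9 FPKM in WT, against 5.68 and 7.84 FPKM. The gene is floxed in tKO, where its values lay above those of WT.

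Among the genes that rose in WT, the step of 2310002J15Rik differed by -2.75, that of Rnf208 by -1.72, that of Ube2f by -1.50 and that of Rgs10 by -1.32. Among those that fell in WT, the step of Pglyrp1 differed by 2.00 and that of Mgarp by 1.58. Steps higher in tKO were found for 6 further genes: Clec2i by 2.64, As3mt by 2.39, Slc43a1 by 2.36, Carns1 by 2.33, Itgb7 by 2.14 and Socs3 by 1.88. Clec2i had 5.74 and 6.19 FPKM at 2 ng/ml in tKO, against 0.484 and 0.302 FPKM at 0.2 ng/ml, and 5.92 and 5.01 FPKM in WT, against 5.15 and 9.41 FPKM. Itgb7, the partner chain of Itgae, had 134 and 142 FPKM in tKO, against 91.8 and 33.0 FPKM, and 141 and 136 FPKM in WT, against 240.0 and 255 FPKM.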

How the results depend on the processing

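The 45 calls in WT, 28 higher and 17 lower, were 83 with quantile normalization (44 and 39), 19 in a fit of the 6 WT libraries (13 and 6) and 0 in a fit of the 4 libraries alone (0 and 0). A pseudocount of 0.1 gave 15 higher, and no filter on low values gave 44 higher. Samples with the same replicate number are not said to share an animal or batch, and their deviations from the group means correlated at 0.06 to 0.19 over the 3 pairs of WT doses (0.09 between 2 and 0.2 ng/ml) and at 0.11 to 0.42 over the 3 pairs of tKO doses. With the replicate number as a block, 122 genes were called in WT (70 higher, 52 lower), all 45 among them, and 766 for the genotype difference (193 and 573). Leaving out 1 of the 12 libraries gave 8 to 113 calls, 5 to 65 higher and 3 to 48 lower. The difference between dose steps was called for 4 genes without a filter (1 higher, 3 lower) and for 0 to 2 with 1 library left out (0 to 1 higher, 0 to 2 lower). The genotype difference, called for 214 genes, was called for 11 without a filter (5 and 6). With libraries scaled to the same FPKM sum it was called for 206 higher and 76 lower, with quantile normalization for 86 and 117, and with 1 library left out for 1 to 1691 genes, 0 to 661 higher and 1 to 1030 lower. Leaving out tKO and untreated WT libraries was added after the data were seen. For single genes and the settings in which they were tested, 2481 values kept their call or lack of one. Sign changes of uncalled genes count among these. A call was lost in 311 values, gained in 50 and reversed in none. The causes were not tested. Depth is unknown, so low values carry an unmeasured counting error.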
